A study of Sus scrofa with 27 samples.

Results

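The FOXO transcription factors FOXO1, FOXO3 and FOXO4 and 7 genes known to be induced by them (TXNIP, PIK3IP1, SESN1, SESN3, CCNG2, BCL6 and CITED2) were followed in the mural granulosa cells (GCs) of sows. These 10 genes were taken by symbol, as the FOXO family and established FOXO-induced genes apart from CDKN1A, with earlier results of these data known, and each had a row among the 35670 pig gene identifiers of the count files. All 10 passed the filter on low counts.

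FOXO proteins are forkhead transcription factors that act as sensors of nutrient and growth factor supply. When insulin or IGF1 activates PI3K and the kinase AKT, AKT phosphorylates FOXO proteins and they are held in the cytoplasm. When that input is low they enter the nucleus and induce genes that slow the cell cycle, restrain PI3K, limit glucose uptake and protect against stress. In rodent GCs FOXO1 is abundant during the growth of the follicle and declines in luteinising cells. These steps act largely on the protein, whereas the libraries measured RNA.

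All sows were wild type Large White times Norwegian Landrace animals. Full-fed sows (FF) received 6.5 kg of feed per day and feed-restricted sows (RES) 3.25 kg per day over the last 2 weeks of lactation. From weaning until the ovaries were collected on day 2 post-weaning, both groups were fed alike. The labels call this feeding full, whereas the allowance in the methods lies below that of RES sows in lactation. According to the methods of the study, the sows were primiparous and were taken from larger groups. RES sows were taken for a high and FF sows for a low loss of body weight. Mural GCs were cut by laser from 1 large healthy follicle per sow, so the stage of the follicle was not set by the design. The study reported smaller follicles of this kind in RES than in FF sows. It also reported that FOXO1 rose with follicle size across RES sows but not across FF sows. Follicle size was not tested here.

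There were 13 FF and 14 RES libraries, each from 1 sow. The total counts had a median of 13490513 in FF, between 12299220 and 16021200, and one of 15232600 in RES, between 12942198 and 18120922. Levels below are counts normalized for library size and are compared within a gene unless they are given per kilobase. The study names no sequencing batch, but base quality left a gap between 7 FF and 7 RES libraries, the upper quality group, and 6 FF and 7 RES libraries, the lower quality group. FF sow 10 stood at the lowest FF level for 6 of the 10 genes, and it is uncertain whether its row of quality values belongs to it or to FF sow 9, which the authors left out. Values within quality groups hold FF sow 10 in the lower one, as its row does. For the genes called, and for FOXO1, FOXO3 and TXNIP, the log2 fold changes are also given with FF sow 10 moved to the upper one.

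The granulosa markers INHA, INHBA, INHBB, FST and VCAN were high in both groups. Over the 11 granulosa markers found, the summed level was 82976 to 134186 in FF and 85818 to 150882 in RES (two-sided permutation test, p = 0.159). AMH was near 0. The theca sum was lower in RES, at 1149 to 5366 against 2071 to 5984 (permutation p = 0.00794), and so was the endothelial sum, at 941 to 2843 against 1372 to 2744 (permutation p = 0.00839), with 4 of 9 tested endothelial genes called lower, against 5.7% of all genes. Of the other lists, 1 of 11 granulosa genes was called higher (HSD17B1) and 1 lower (AMHR2), and 1 of 7 theca (CYP11A1), 1 of 7 stroma (PDGFRB) and 1 of 2 erythroid genes (HBB) were called lower. The erythroid sum was 9.31 to 138 in RES and 37.1 to 1108 in FF (permutation p = 0.00676). The immune, stroma, smooth muscle and oocyte sums gave permutation p of 0.0809, 0.211, 0.745 and 0.21. The stroma sum was 13656 to 40275 in FF and 10744 to 36059 in RES, above the theca and endothelial sums in both groups. The oocyte genes ZP2, ZP3, ZP4, FIGLA and OOEP, the erythroid gene HBM and the T cell gene CD3E were at or near 0. In bulk RNA, fewer cells of a type and less RNA per cell cannot be told apart.

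The DNA that FOXO proteins bind best has the core GTAAACA, and a second one, CAAAACA, is found in insulin response elements. Both were searched on both strands, as exact matches, in windows from 250 bases before to 50 bases after each annotated gene start of the RefSeq annotation of Sscrofa11.1, the build of the files. GTAAACA stood in 518 of 19544 such windows (2.65%) and CAAAACA in 937 (4.79%). Among the 10 genes, the windows of FOXO3, FOXO4 and TXNIP held GTAAACA, and that of FOXO4 also held CAAAACA. These 3 windows, at the annotated starts, are shown from 5′ to 3′ on the coding strand because they are the ones with a match, which is in capitals. The FOXO3 window is chr1:74626423-74626722 on the plus strand, with the first base of the match at position -179 from the gene start. The FOXO4 window is chrX:57132299-57132598 on the plus strand, with GTAAACA from -193 and CAAAACA from -156. The TXNIP window is chr4:99348339-99348638 on the plus strand, with the match from -137.
FOXO3: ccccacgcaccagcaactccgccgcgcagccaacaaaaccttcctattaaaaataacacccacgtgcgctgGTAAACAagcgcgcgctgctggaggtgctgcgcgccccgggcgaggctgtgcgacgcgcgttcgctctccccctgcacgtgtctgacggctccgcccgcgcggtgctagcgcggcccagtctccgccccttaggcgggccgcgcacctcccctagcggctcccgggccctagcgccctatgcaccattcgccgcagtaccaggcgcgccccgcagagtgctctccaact
FOXO4: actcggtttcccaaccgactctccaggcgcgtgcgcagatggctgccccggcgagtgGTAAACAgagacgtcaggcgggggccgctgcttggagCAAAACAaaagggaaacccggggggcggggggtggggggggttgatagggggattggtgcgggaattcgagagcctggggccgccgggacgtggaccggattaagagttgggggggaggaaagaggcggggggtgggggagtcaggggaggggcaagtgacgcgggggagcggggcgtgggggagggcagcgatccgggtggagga
TXNIP: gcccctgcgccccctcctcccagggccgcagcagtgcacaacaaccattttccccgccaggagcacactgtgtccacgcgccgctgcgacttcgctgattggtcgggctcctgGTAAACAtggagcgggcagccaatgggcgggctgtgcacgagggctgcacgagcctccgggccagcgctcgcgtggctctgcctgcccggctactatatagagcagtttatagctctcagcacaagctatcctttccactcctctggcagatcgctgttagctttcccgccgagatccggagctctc
The other 7 windows held neither sequence of letters, which says nothing of elements outside these 300 bases or of other spellings.

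Of the 10 genes, 5 were called lower in RES GCs at an adjusted p under 0.05, namely PIK3IP1, SESN1, SESN3, BCL6 and CITED2, and none was called higher (edgeR's quasi-likelihood test, Benjamini-Hochberg adjustment over 11384 genes). Over all genes tested, 13.9% were called, 5.7% lower and 8.19% higher. All 10 log2 fold changes were negative, and their median was -0.42, against 52.67% negative and a median of -0.02 over all genes. At an unadjusted p under 0.05, 8 of the 10 were lower, against 14.2% of all genes. The levels of the 2 groups overlapped for each of the 10 genes.

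**Figure D1:**
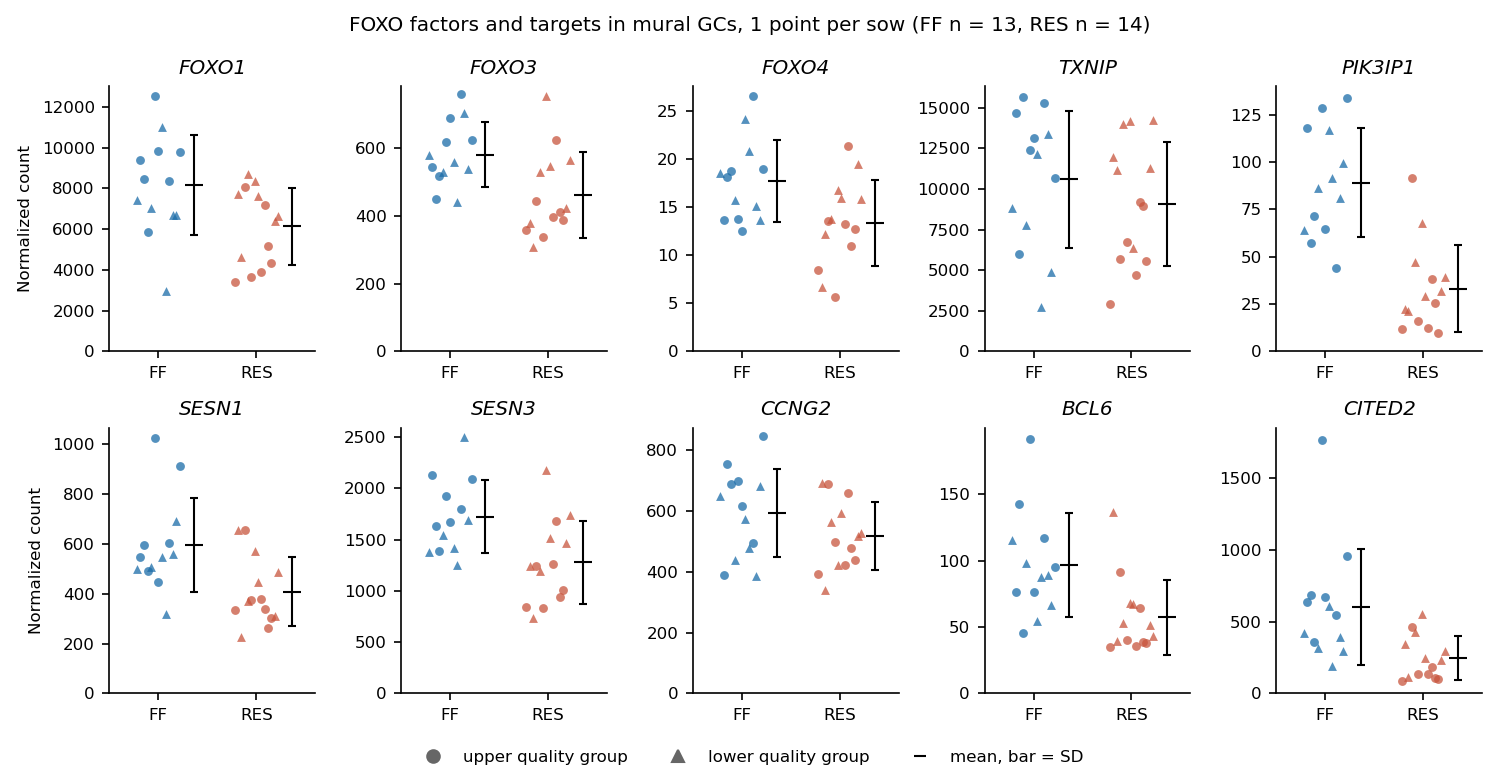
Normalized counts (y axis, linear from 0) of the 10 genes in FF (blue, n = 13) and RES (red, n = 14) GCs, 1 point per sow, with circles for the upper and triangles for the lower quality group and a black mark and bar for the mean and SD. For PIK3IP1, 11 of 14 RES sows lay below the lowest FF sow, whereas the TXNIP values of the groups spanned nearly the same range.

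Among the 3 factors, FOXO1 was by far the most abundant. Per kilobase of RefSeq exons it had 1512 ± 457 normalized counts in FF (SD, n = 13), against 76.8 ± 12.6 for FOXO3 and 5.11 ± 1.23 for FOXO4, and the ranges of the 3 factors did not meet on this scale. In RES (n = 14) the levels per kilobase were 1136 ± 350.3, 61.1 ± 16.6 and 3.85 ± 1.30 in the same order.

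FOXO1 (ENSSSCG00000009370, chromosome 11, 15317222 to 15410059) is the factor best known from GCs. Its lowest, median and highest FF levels were 2972, 8363 and 12546 normalized counts, and those in RES were 3405, 6526 and 8711. The lowest FF sow, sow 10, lay below every RES sow, while 5 FF sows lay above the highest RES sow, and 13 of 14 RES sows lay below the FF median. The mean was 8158 ± 2464 in FF and 6131 ± 1890.3 in RES, which in edgeR was -0.41 (SE 0.17) on the log2 scale, at p = 0.0242 before and 0.107 after adjustment, so FOXO1 was not called. Without FF sow 10 it was -0.49 with an adjusted p of 0.0267 in edgeR, and this was the 1 of 27 fits without 1 library in which FOXO1 was called. Limma's voom with sample weights also called it, at -0.54 and an adjusted p of 0.0105.

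The RES values of FOXO1 were spread unevenly. In 6 of 14 RES sows the level was under 6000, and 5 of these 6 (sows 1, 6, 9, 11 and 12) belonged to the upper quality group, the sixth being sow 3. In the upper quality group FOXO1 was 9180 ± 2016 in FF (SD, n = 7) and 5102 ± 1833 in RES (n = 7), with a log2 fold change of -0.84 (edgeR, SE 0.21, adjusted p = 0.0155). In the lower quality group it was 6965 ± 2555 (n = 6) and 7160 ± 1384 (n = 7), with a log2 fold change of 0.04 (edgeR, SE 0.22, adjusted p = 0.969). With FF sow 10 moved to the upper quality group these became -0.71 (adjusted p = 0.0886) and -0.12 (adjusted p = 0.855). Across sows FOXO1 had a Pearson's r of 0.55 with the RIN in FF (permutation p = 0.0606), 0.03 without the 2 farthest sows, and of -0.54 in RES (permutation p = 0.0477), -0.78 without the 2 farthest. Adjusted over the 4 relations with RIN, p was 0.0808 for FOXO1 in both diets, and rho was 0.22 in FF (permutation p = 0.469) and -0.54 in RES (permutation p = 0.051). The quality groups, upper first, gave an r with RIN of -0.10 and 0.66 in FF and of -0.81 and 0.56 in RES. With RIN as a term in edgeR, the log2 fold change of FOXO1 was -0.41 (adjusted p = 0.118). If FF sow 10 was given the RIN listed for FF sow 9, a choice made after seeing the data, r in FF was 0.145 (permutation p = 0.635) and the fit with RIN gave -0.42 (adjusted p = 0.0949).

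FOXO3 (ENSSSCG00000004387, chromosome 1, 74626673 to 74760323), which holds back the activation of primordial follicles in the oocyte, had a median of 559.7 normalized counts in FF, with a range of 439.9 to 761, and one of 417 in RES, with a range of 307.0 to 754. In RES, 8 of 14 sows lay below the lowest FF sow and 11 below the FF median, but RES sow 7 was close to the highest FF sow. The log2 fold change was -0.33 (SE 0.12) with an adjusted p of 0.0556 in edgeR. DESeq2 gave an adjusted p of 0.0405, edgeR with the filterByExpr filter one of 0.0478 and limma's voom one of 0.0062, and the fits without FF sow 3, 4 or 10 or RES sow 7, 10 or 14 also called it. The upper quality group gave -0.505 (edgeR, adjusted p = 0.0254) and the lower -0.16 (edgeR, adjusted p = 0.78), and these became -0.45 (adjusted p = 0.0598) and -0.22 (adjusted p = 0.703) once FF sow 10 was moved.

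FOXO4 (ENSSSCG00000012399, chromosome X, 57132549 to 57140377) had a median of 18.15 normalized counts in FF, with a range of 12.5 to 26.5, and one of 13.4 in RES, with a range of 5.615 to 21.3, and its raw counts of 6 to 27 per library were the lowest of the 10. Of the RES sows, 12 of 14 lay below the FF median. Its log2 fold change was -0.415 in edgeR, with an SE of 0.18 and an adjusted p of 0.119. Limma's voom with sample weights called it, at -0.52 and an adjusted p of 0.0303.

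The targets that act on growth factor input were led by PIK3IP1 (ENSSSCG00000010026, chromosome 14, 48040848 to 48051660), a membrane protein that binds the catalytic subunit of PI3K and lowers its activity. Its lowest, median and highest levels were 44.2, 86.3 and 134.0 normalized counts in FF and 9.75, 27.4 and 91.4 in RES. Of 14 RES sows, 11 lay below the lowest FF sow, and RES sow 4 alone lay above the FF median. The mean fell from 89.0 ± 28.8 (SD, n = 13) to 33.1 ± 23.1 (n = 14), a log2 fold change of -1.42 (edgeR, SE 0.27, adjusted p = 0.00231), which is 62.7% lower.

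The difference of PIK3IP1 was of similar size in both quality groups. Its log2 fold change in edgeR was -1.58 (SE 0.47) among the upper libraries, at an adjusted p of 0.0334, and -1.28 (SE 0.26) among the lower ones, at p = 0.00011 before and 0.118 after adjustment. Moving FF sow 10 to the upper ones turned these to -1.59 (adjusted p = 0.0356) and -1.28 (adjusted p = 0.137). It was called in 27 of 27 fits that each left out 1 library, with an adjusted p of 0.00035 to 0.00502. Its raw counts were 10 to 126 per library.

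SESN1 and SESN3 encode sestrins, stress-inducible proteins that sense amino acids and restrain the kinase mTORC1. SESN1 (ENSSSCG00000004390, chromosome 1, 75056731 to 75170374) lies 296.4 kb from FOXO3. Its lowest, median and highest levels were 319, 548 and 1025 normalized counts in FF and 225, 373 and 656 in RES, and 11 of 14 RES sows lay below the FF median. It fell from 596 ± 188 (SD, n = 13) to 408 ± 138 (n = 14), a log2 fold change of -0.55 (edgeR, SE 0.17, adjusted p = 0.0267). FF sows 6 and 14 were the highest, and without either of them the adjusted p was 0.0594 or 0.0531. The upper quality group gave -0.80 (edgeR, SE 0.22, adjusted p = 0.0239) and the lower -0.25 (edgeR, SE 0.22, adjusted p = 0.70), and FF sow 10 in the upper one gave -0.70 (adjusted p = 0.0697) and -0.37 (adjusted p = 0.557).

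SESN3 (ENSSSCG00000037015, chromosome 9, 27207239 to 27279205) had 178 ± 36.9 normalized counts per kilobase in FF, beside 157 ± 49.6 for SESN1. The 2 genes were not tested against each other, and lengths from RefSeq were set to counts on Ensembl models. Its lowest, median and highest levels were 1256, 1669 and 2502 in FF and 734, 1246 and 2179.9 in RES. In RES, 8 of 14 sows lay below the lowest FF sow, and RES sow 7 was the highest. It fell from 1725 ± 358 (SD, n = 13) to 1278 ± 408 (n = 14), a log2 fold change of -0.43 (edgeR, SE 0.14, adjusted p = 0.0376). This call was lost in 10 of 27 fits without 1 library (FF sow 2, 6, 12 or 14, RES sow 1, 3, 6, 9, 11 or 12), where the adjusted p reached 0.0543 to 0.0708. Among the upper libraries SESN3 differed by -0.69 (edgeR, SE 0.15, adjusted p = 0.0115) and among the lower ones by -0.18 (edgeR, SE 0.21, adjusted p = 0.791), which became -0.63 (adjusted p = 0.0259) and -0.25 (adjusted p = 0.734) once FF sow 10 was moved.

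The targets that act in the nucleus or on the cell cycle were CITED2, BCL6 and CCNG2. CITED2 (ENSSSCG00000004142, chromosome 1, 25155652 to 25158517) encodes a transcriptional coregulator that competes with HIF1A for the coactivators CBP and p300. Its lowest, median and highest levels were 191.5, 544 and 1765 normalized counts in FF and 87.2, 209 and 554 in RES. RES sow 7 was the only RES sow above the FF median, 7 of 14 RES sows lay below the lowest FF sow, and FF sow 6 was far above all others. It fell from 603 ± 406 (SD, n = 13) to 245 ± 152 (n = 14), a log2 fold change of -1.30 (edgeR, SE 0.32, adjusted p = 0.00891), which is 59.4% lower.

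The call of CITED2 was kept in 27 of 27 fits without 1 library (adjusted p of 0.00252 to 0.0227), the weakest being the fit without FF sow 6, at a log2 fold change of -1.05. In the upper quality group the log2 fold change was -2.20 (edgeR, SE 0.42, adjusted p = 0.00844). In the lower quality group it was -0.23 (edgeR, SE 0.31, adjusted p = 0.824). Moving FF sow 10 to the upper one gave -2.06 (adjusted p = 0.0219) and -0.37 (adjusted p = 0.719).

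BCL6 (ENSSSCG00000011810, chromosome 13, 125377247 to 125401328), a transcriptional repressor with a zinc finger and a BTB domain, had lowest, median and highest levels of 45.2, 89.15 and 192 normalized counts in FF and 34.7, 47.4 and 137 in RES. In RES, 7 of 14 sows lay below the lowest FF sow and 12 below the FF median. It fell from 96.5 ± 39.0 (SD, n = 13) to 57.35 ± 28.1 (n = 14), a log2 fold change of -0.75 (edgeR, SE 0.22, adjusted p = 0.0199), and was called in 27 of 27 fits without 1 library. For BCL6 the upper quality group gave -1.11 (edgeR, SE 0.30, adjusted p = 0.0235) and the lower one -0.38 (edgeR, SE 0.27, adjusted p = 0.619). With FF sow 10 moved to the upper one they were -1.08 (adjusted p = 0.0322) and -0.38 (adjusted p = 0.687).

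CCNG2 (ENSSSCG00000008988, chromosome 8, 72790394 to 72800553) encodes cyclin G2, an unconventional cyclin found in resting cells. It had a median of 615 normalized counts in FF, between 387 and 846, and one of 507 in RES, between 339.8 and 691. The log2 fold change was -0.20 (edgeR, SE 0.12, adjusted p = 0.295). It was called in none of the 27 fits without 1 library.

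TXNIP (ENSSSCG00000031262, chromosome 4, 99348589 to 99351760) encodes a protein that binds thioredoxin and limits glucose uptake. Per kilobase it was the most abundant of the 10 genes, with 5709 ± 2263 normalized counts in FF (n = 13). Its lowest, median and highest levels were 2718, 12167 and 15683 in FF and 2890.4, 9076 and 14269.5 in RES, so both groups covered nearly the same range. The log2 fold change was -0.22 (edgeR, SE 0.25, adjusted p = 0.578).

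Within quality groups the difference in TXNIP had opposite signs. In the upper quality group it was 12546 ± 3388 in FF and 6240.2 ± 2260.4 in RES (SD, n = 7 each), a log2 fold change of -1.01 (edgeR, SE 0.25, adjusted p = 0.016). In the lower quality group it was 8295 ± 4098 (n = 6) and 11889 ± 2800.1 (n = 7), a log2 fold change of 0.52 (edgeR, SE 0.30, adjusted p = 0.507). With FF sow 10 in the upper quality group the values were -0.85 (adjusted p = 0.102) and 0.33 (adjusted p = 0.66). Pearson's r of TXNIP with the RIN was 0.63 in FF (n = 13, permutation p = 0.0114, adjusted over 4 relations p = 0.0456), where rho was 0.55 (permutation p = 0.054). This r was 0.19 when the 2 sows farthest from the median RIN were left out and so rested on them. In RES r was -0.48 (n = 14, permutation p = 0.0849, the same after adjustment), where rho was -0.50 (permutation p = 0.0709), and r was -0.52 when the 2 sows farthest from the median RIN were left out. The quality groups, upper first, gave 0.37 and 0.62 in FF and -0.28 and 0.05 in RES. With RIN as a term in edgeR, the log2 fold change of TXNIP was -0.22 (adjusted p = 0.592). If FF sow 10 was given the RIN of FF sow 9, r in FF was 0.41 (permutation p = 0.166) and the fit gave -0.24 (adjusted p = 0.548).

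Over the 10 genes, 8 were called lower in the upper quality group, the exceptions being FOXO4 and CCNG2, where 7.77% of all genes were called lower. None was called in the lower quality group, where 2 of 11384 genes were called and 1383 had an unadjusted p under 0.05 in edgeR. With FF sow 10 in the upper quality group, 4 of the 10 (PIK3IP1, SESN3, BCL6 and CITED2) were called lower there, against 3.58% of all genes, and none in the lower one, where edgeR called none of the 11384 genes and 1299 had an unadjusted p under 0.05. The difference between the quality groups, tested as a diet by quality term chosen after the data were seen, was -0.89 for FOXO1 (SE 0.32, unadjusted p = 0.00913), -1.53 for TXNIP (SE 0.41, unadjusted p = 0.00093) and -1.98 for CITED2 (SE 0.55, unadjusted p = 0.00133). None of these passed adjustment over all genes in edgeR (adjusted p = 0.304, 0.194 and 0.194), where none of the 11384 genes was called and 1366 had an unadjusted p under 0.05. With FF sow 10 in the upper quality group the 3 unadjusted p were 0.0849, 0.0119 and 0.00839, and the adjusted p in edgeR was 0.995 for each of them. In that fit none of the 11384 genes was called and 519 had an unadjusted p under 0.05. For PIK3IP1 the difference was -0.31 (SE 0.55, unadjusted p = 0.584).

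**Figure D2:**
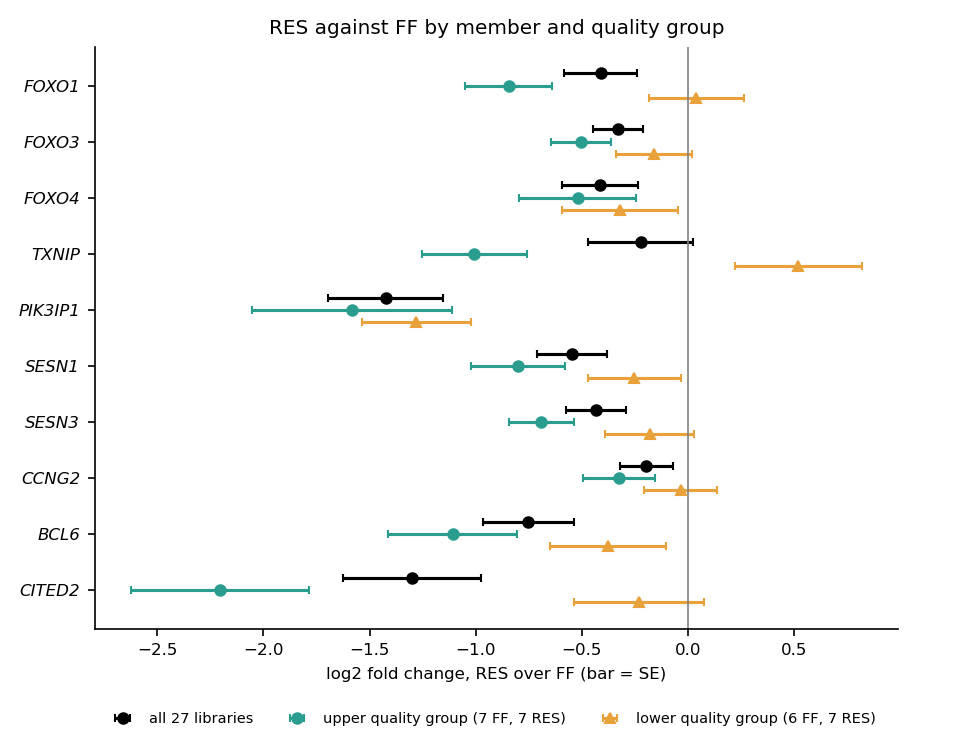
Log2 fold change of RES over FF (x axis, bar = SE) for each of the 10 genes (y axis) over all 27 libraries (black), in the upper quality group (green circles) and in the lower quality group (orange triangles). The points of PIK3IP1 lie together at -1.42, -1.58 and -1.28, whereas those of CITED2 (-2.20 and -0.23) and TXNIP (-1.01 and 0.52) lie apart.

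The design also allows the question of whether the other genes followed FOXO1 from sow to sow within a group, where diet does not differ. In RES the 9 other genes all had a positive r with FOXO1, with a median of 0.67, against 52.5% positive over all genes. Of the 9, 8 had a permutation p under 0.05 (all but FOXO4), against 12.9% of all genes with a positive r. In FF, 8 of 9 were positive, with a median r of 0.40, against 47.7% positive over all genes. A permutation p under 0.05 was reached by 2 of 9, against 12.0% of all genes. After adjustment over the 11383 genes of a group, 3 of 9 were called in RES (PIK3IP1, BCL6 and CITED2) against 8.04% of all genes, and CITED2 alone in FF against 6.84%. Tests were two-sided with 100000 permutations, and 20 relations are described, CDKN1A included. All values of a sow come from 1 library, so its composition is shared by the genes compared.

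CITED2 followed FOXO1 most closely. In RES (n = 14) r was 0.87 (permutation p = 6e-05, and 0.0116 after adjustment), while Spearman's rho was 0.89 (permutation p = 7e-05). Leaving out the 2 sows farthest from the FOXO1 median gave 0.86, and the quality groups, upper first, gave 0.81 and 0.87 (exact permutation test, n = 7 each, p = 0.0137 and 0.0119). In FF (n = 13) r was 0.81 (permutation p = 0.00042, and 0.0218 after adjustment), while rho was 0.87 (permutation p = 0.00017). Leaving out the 2 farthest sows gave 0.79, and the quality groups, upper first, gave 0.89 and 0.94 (exact permutation test, p = 0.00516 with n = 7 and 0.0139 with n = 6). Once FF sow 10 was moved, the upper one gave 0.86 (exact permutation test, n = 8, p = 0.00761), and no r was computed over the 5 FF sows left in the lower one. Only 0.246% of all genes in RES and 1.195% in FF had an r as high.

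PIK3IP1 had an r of 0.75 with FOXO1 in RES (n = 14, permutation p = 0.00055, and 0.0216 after adjustment), where rho was 0.85 (permutation p = 0.00012). Leaving out the 2 farthest sows gave 0.71, and the quality groups, upper first, gave 0.89 and 0.61 (exact permutation test, n = 7 each, p = 0.00397 and 0.148). In FF r was 0.41 (n = 13, permutation p = 0.168, and 0.354 after adjustment) while rho was 0.33 (permutation p = 0.271), with 0.40 without the 2 farthest sows.

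BCL6 had an r of 0.65 in RES (n = 14, permutation p = 0.0036, and 0.0474 after adjustment), where rho was 0.86 (permutation p = 0.00022), with 0.615 without the 2 farthest sows. In the quality groups r was 0.93 and 0.41, upper first (exact permutation test, n = 7 each, p = 0.00615 and 0.326). In FF r was 0.40 (n = 13, permutation p = 0.178, and 0.368 after adjustment), rho was 0.24 (permutation p = 0.425), and r was 0.01 without the 2 farthest sows.

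In RES the remaining r were 0.70 for FOXO3, 0.67 for SESN3 and CCNG2, 0.62 for SESN1, 0.61 for TXNIP and 0.47 for FOXO4, with adjusted p of 0.0535 to 0.273 by permutation (n = 14). Without the 2 farthest sows, 6 of 9 relations in RES kept a permutation p under 0.05, and after removing the means of the quality groups 7 of 9 did. For TXNIP this residual r was 0.34 (permutation p = 0.241). In FF the r of SESN1 was 0.67 (n = 13, permutation p = 0.0134, and 0.0915 after adjustment) where rho was 0.43 (permutation p = 0.146), but it was 0.20 without the 2 farthest sows and rested on them. The r of FOXO4 in FF was -0.12 (permutation p = 0.689). Within RES, an exact permutation p under 0.05 was reached by 5 of 9 relations and a positive r among the upper libraries, against 10.9% of all genes, and by 1 of 9 among the lower ones, against 3.0% of all genes (n = 7 each). The 1 was CITED2.

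Whether the relations differed between the diets was tested by permuting the diet labels of values standardised within each group. No difference in r passed, the permutation p of the 9 genes being 0.145 for FOXO4 to 0.836 for SESN1, so the larger count in RES is not shown to be a difference from FF. CDKN1A, the FOXO-induced cell cycle inhibitor left out of the 10 genes, had an r with FOXO1 of 0.66 in RES (n = 14, permutation p = 0.0099, and 0.0799 after adjustment), where rho was 0.61 (permutation p = 0.0234). In FF r was 0.11 (n = 13, permutation p = 0.712) with a rho of 0.20 (permutation p = 0.515). The difference had a permutation p of 0.177.

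**Figure D3:**
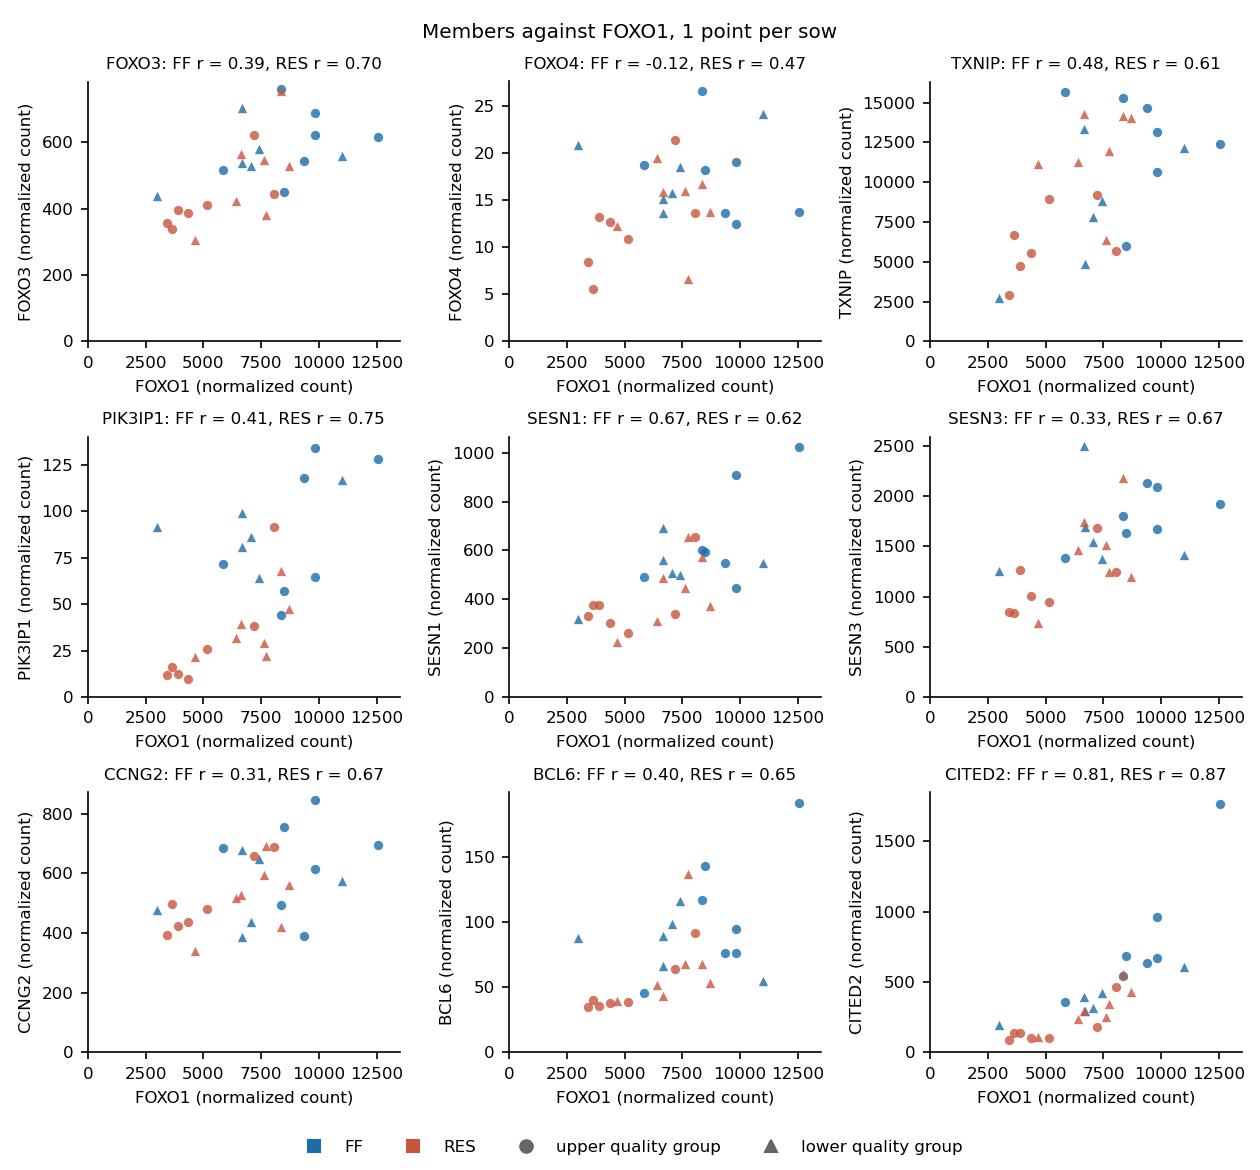
Normalized counts of 9 genes (y axes) against those of FOXO1 (x axes), 1 point per sow, in FF (blue, n = 13) and RES (red, n = 14), with circles for the upper and triangles for the lower quality group and Pearson's r above each panel. CITED2 rises with FOXO1 in both groups (r = 0.81 and 0.87), and the FF sow at the upper right is sow 6.

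**Figure D4:**
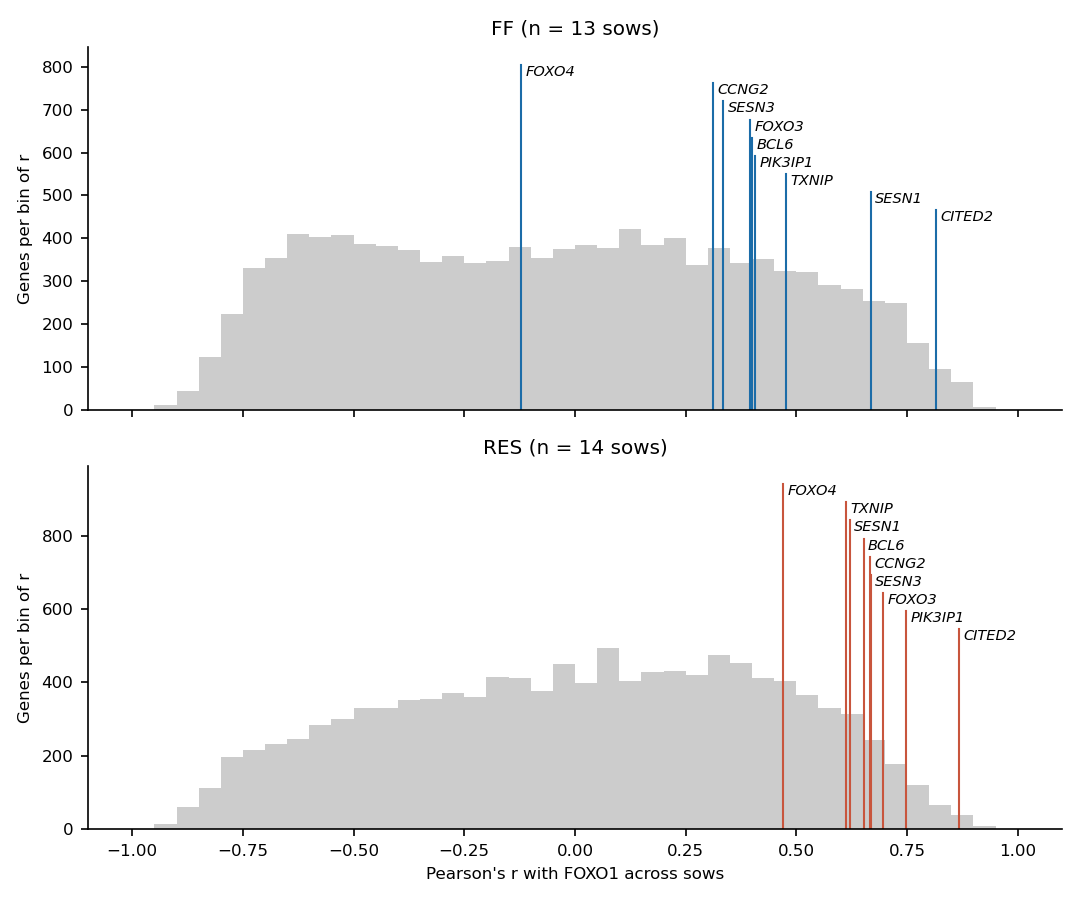
Number of genes (y axis) per bin of Pearson's r with FOXO1 across sows (x axis) over 11383 genes in FF (top) and RES (bottom), with lines at the r of the 9 genes. The r of all genes spread widely around a median of -0.04 in FF and 0.04 in RES, while the 9 genes lay between 0.47 and 0.87 in RES and between -0.12 and 0.81 in FF.

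Among themselves, 43 of 45 pairs of the 10 genes had a positive r in RES, with a median of 0.53, and 32 of 45 in FF, with a median of 0.28. The closest pair in RES was FOXO3 with SESN3 (r = 0.92, n = 14), and in FF it was SESN1 with CITED2 (r = 0.83, n = 13). FOXO3 and SESN1, which lie 296.4 kb apart on chromosome 1, had an r of 0.28 in FF and 0.37 in RES. These are descriptions of pairs that share libraries.

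The genes most like each factor were ranked by r of log2 normalized counts over the 27 libraries after subtracting the group means, among 7975 genes with a mean of at least 50. For FOXO1 they were IL33 (r = 0.90), ABI2 (0.90), SAT1 (0.895), MARCHF8 (0.89) and TMEM59 (0.89). For FOXO3 the first was SESN3 (0.81), itself one of the 10 genes, followed by UBE2H (0.81) and RAPGEF2 (0.80). For FOXO4 they were TYRO3 (0.68), SIK3 (0.66) and NAGK (0.63).

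Of 12 listed cell cycle genes that are high in S phase and mitosis, 10 were tested, AURKA and MKI67 not being among them, and the mean over these 10 ran against FOXO1. Of the 10 genes, 9 were called higher in RES, against 8.19% of all genes. The 5 with the lowest adjusted p were CCNA2 at 1.01 on the log2 scale (edgeR, SE 0.21, adjusted p = 0.00298), CCNB2 at 1.06, PLK1 at 1.14, TOP2A at 1.155 and TYMS at 0.87. Across RES sows the r of FOXO1 with this mean was -0.72 (n = 14, permutation p = 0.001, adjusted over 4 relations p = 0.004) and rho was -0.78 (permutation p = 0.00114), and r was -0.81 when the 2 farthest sows were left out. In the quality groups r was -0.80 and -0.56, upper first. Across FF sows r was -0.60 (n = 13, permutation p = 0.0313, and 0.0417 after adjustment over the 4 relations), while rho was -0.57 (permutation p = 0.0455). Leaving out the 2 sows farthest from the median of this mean gave an r of -0.49. In the quality groups r was -0.71 and -0.64, upper first, and -0.60 in the upper one with FF sow 10 moved to it. For TXNIP, r was -0.63 in RES (permutation p = 0.0108, adjusted p = 0.0215) and -0.36 in FF (permutation p = 0.231). These p were adjusted over 4 relations and not over all genes. Of the 11383 single genes, 410 had an r with FOXO1 of -0.65 to -0.60 in FF, and 196 one of -0.80 to -0.75 in RES.

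Upstream of the factors, 23 of 26 listed genes of the input from insulin and IGF1 receptors through PI3K to AKT were tested. Of these, 2 were called lower, a share near the 5.7% of all genes, and none higher. The median of the list was -0.08 on the log2 scale, against -0.02 over all genes. PIK3R1, the regulatory subunit p85 alpha of PI3K, fell from 1628 ± 499 to 1020.5 ± 383 normalized counts (log2 fold change -0.67 in edgeR, SE 0.19, adjusted p = 0.0173). IRS1, the docking protein of both receptors, fell from 453 ± 129 to 322 ± 94.0 (edgeR, -0.49, SE 0.15, adjusted p = 0.0262).

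Of 26 listed genes whose proteins modify or bind FOXO factors, 22 were tested, 3 were called higher, against 8.19% of all genes, and none lower, and the median of the list was 0.05 on the log2 scale, against -0.02 over all genes. SKP2, a ubiquitin ligase subunit that marks FOXO1 for degradation, rose from 853 ± 164 to 1165.5 ± 236 normalized counts (log2 fold change 0.45 in edgeR, SE 0.11, adjusted p = 0.0079). YWHAZ, a 14-3-3 protein of the kind that holds phosphorylated FOXO in the cytoplasm, rose by 0.33 (edgeR, SE 0.10, adjusted p = 0.0217). STK4, a kinase that phosphorylates FOXO under stress, rose by 0.25 (edgeR, SE 0.08, adjusted p = 0.0488).

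Of 41 other listed FOXO-induced genes, 32 were tested, 5 were called lower, against 5.7% of all genes, and none higher. The median was -0.16 on the log2 scale, against -0.02 over all genes, and 25 of 32 values were negative, against 52.67% of all genes. GABARAPL1, which builds autophagosomes, fell from 184.0 ± 30.01 to 129 ± 36.6 normalized counts (log2 fold change -0.51 in edgeR, SE 0.13, adjusted p = 0.00896). PINK1, a kinase that marks damaged mitochondria, fell by 0.55 (edgeR, SE 0.16, adjusted p = 0.0245), and MXI1, an antagonist of MYC, fell by 0.81 (edgeR, SE 0.26, adjusted p = 0.0388). SESN2, the third sestrin, fell by 0.96 (edgeR, SE 0.29, adjusted p = 0.0262) at a low level of 10.4 ± 4.96 normalized counts in FF. KLF2, a transcription factor of resting cells that endothelial cells also express, fell by 0.77 (edgeR, SE 0.21, adjusted p = 0.0131).

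The levels of other cell types were set beside FOXO1. The endothelial sum had an r with FOXO1 of 0.28 in FF and 0.45 in RES, the theca sum -0.40 and 0.34, and the oocyte list, which rests almost wholly on GDF9, 0.58 and 0.73. For the stroma sum, which gave permutation p = 0.211 between the diets, the r was -0.60 in FF and 0.44 in RES, and for the immune sum 0.34 and 0.44. The granulosa sum gave -0.30 and 0.09, the smooth muscle sum -0.24 and 0.12 and the erythroid sum 0.205 and -0.01. The part of these in the results was not tested.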

How the data were processed

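Counts per gene were deposited for 27 libraries, 1 per sow. Per the labels and methods, the authors removed rRNA, made dUTP libraries with molecular identifiers, aligned reads to Sscrofa11.1 with HISAT2 2.2.1, removed duplicates with UMI-tools 1.1.4 and counted reads per gene with featureCounts 1.6.2, with no strand setting stated, so that overlapping genes on opposite strands may share counts. Tools are as in the submitters' processing notes (SAMtools 1.16.1 among them). Identifiers were matched to symbols for 15623 of 35670, with gene models of Ensembl release 110.

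The 10 genes, the lists and the tests were chosen with earlier results of these data known. Genes named from lists were those called, up to 5 by adjusted p, and genes like a factor were the first 5 for FOXO1 and the first 3 for FOXO3 and FOXO4. Genes with a symbol and a mean count of at least 5 were tested, leaving out 38 small RNAs (11384 genes). RES was tested against FF with no covariate by edgeR 4.0.16 (R 4.3.3; TMM, robust quasi-likelihood test), and SE was the log2 fold change over the square root of F. Normalized counts are counts over the TMM library size times its mean. In data simulated for RES against FF on 11384 genes, 87.5% of 200 genes changed 2-fold were recovered, with 7.89% of calls on unchanged genes. Alternatives were DESeq2 1.42.0, its size factors, other filters, all identifiers, a replicate block, quality group or RIN as a term, either quality group alone, limma 3.58.1 (voom with sample weights) and each library left out. RIN and base quality came from the study's sample tables. Correlations and figures used Python 3.11.15, numpy 2.4.6, scipy 1.17.1 and matplotlib 3.10.9, and all permutations were used within quality groups. The smallest p that 100000 permutations give is 1e-05. Promoter windows were read with pysam 0.24.0.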

Additional observations from a re-analysis of the deposited data

How the results depend on the processing

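The main test called 1581 genes and 5 of the 10 members. DESeq2 called 1935 and 6, DESeq2 size factors in edgeR 1583 and 5, filterByExpr 1628 and 6, no filter 1438 and 5, all identifiers 2248 and 5, the quality group as a term 1694 and 5, and RIN as a term 1502 and 5 (1491 and 5 with the RIN of FF sow 9 given to FF sow 10). Limma's voom with sample weights called 3193 and 8 (all but TXNIP and CCNG2). The upper quality group alone called 1986 and 8 and the lower 2 and 0, or, with FF sow 10 placed in the upper group (chosen after seeing the data), 1009 and 4 and then 0 and 0, with 1299 genes at an unadjusted p under 0.05. Leaving out 1 library gave 1163 to 2317 genes and 3 to 7 members, with 3 without FF sow 6 or FF sow 14 and 7 without FF sow 10. The sow numbers shared by FF and RES were not stated to pair animals, and same-numbered sows did not deviate together (correlation -0.221 to 0.296 over 13 pairs, 1 of them over 0.1, and no FF sow closest to its own number). With the sow number as a replicate block, 1045 genes and 2 members (PIK3IP1 and CITED2) were called. The calls of SESN1, SESN3 and BCL6 were lost in this edgeR fit (adjusted p = 0.051, 0.0528 and 0.0899). Of the log2 fold changes of the members, FOXO1 (0.039) and TXNIP (0.52, or 0.33 with FF sow 10 moved) turned positive in the lower quality group and in no other alternative. Among the correlations with FOXO1, that of FOXO4 in FF turned to 0.25 without the 2 farthest sows, 0.31 in the lower quality group, 0.033 without FF sow 6 and 0.023 without FF sow 10 (-0.33 to 0.033 over all fits without 1 sow), and in RES to -0.028 in the lower quality group. In FF, TXNIP turned to -0.22 in the upper quality group, but was 0.47 there with FF sow 10 moved to it. BCL6 turned to -0.40 in the lower quality group, and CDKN1A to -0.11 without FF sow 10 (-0.11 to 0.30 over all fits without 1 sow). With FF sow 10 moved, the upper FF group gave 0.78 for SESN1 and 0.80 for SESN3 (exact permutation test, n = 8, p = 0.0219 and 0.0163). Besides CITED2, no other relation had a p under 0.05 there. The causes were not tested. Of the 420 alternative values of the correlations, 383 kept their direction and side of p = 0.05. Nothing here separates diet from the stage of the follicle, and the low counts of FOXO4, SESN2 and PIK3IP1 limit their precision.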
